A study of Mus musculus with 6 samples.

Results

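Endocrine cells store hormones in dense-core granules, and the 10 genes described here encode the granins and the processing machinery of those granules: Pcsk1, Pcsk2, Cpe, Scg5, Chga, Chgb, Scg2, Scg3, Ptprn and Ptprn2. They were taken by name, as every probe set to which the array annotation gives exactly 1 symbol, that symbol being one of the 10. All 10 were measured, by 125 probe sets, of 20416 genes in all. RNA came from MIN6-4N, a line of mouse pancreatic beta cells derived from an insulinoma. The Meg3 group was 1 clone stably carrying pcDNA3.1-mMeg3, a plasmid that expresses the mouse non-coding RNA Meg3, and the vector group was 1 clone carrying empty pcDNA3.1. Both clones went through selection in 750 µg/ml G418 for 5 weeks and were then kept in low-glucose medium with 500 µg/ml G418 and 15% serum, per the labels' protocols. Each group had 3 arrays, 1 from each of 3 independent cultures of its clone. An effect of Meg3 therefore cannot be told apart from any other difference between the clones, and p-values measure the spread between cultures.

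Proinsulin and other prohormones are cut after pairs of basic residues by the convertases encoded by Pcsk1 and Pcsk2, and the carboxypeptidase encoded by Cpe then trims the basic residues left at the cut. Scg5 encodes the chaperone that the Pcsk2 convertase needs to become active. Chga, Chgb, Scg2 and Scg3 encode granins, acidic proteins that aggregate in the trans-Golgi network with hormone and calcium and help to form the granule. Ptprn and Ptprn2 encode transmembrane proteins of the granule that look like receptor tyrosine phosphatases and are autoantigens in type 1 diabetes.

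Several granin and convertase genes are known to be read from promoters with a cyclic AMP response element, the palindrome TGACGTCA, so their starts are shown here before the values. Promoter windows (RefSeq, GRCm38.p6) ran from 250 bases before to 50 bases after an annotated start, and 9 of the 10 genes had one, with 2 windows for Ptprn. The whole element was in the windows of 3 genes, Pcsk1, Chgb and Scg2, and in 1.79% of all 32851 windows. The shorter core TGACG, searched on both strands and contained in every whole element, was in the windows of 8 genes, Ptprn2 being the one without it, and in 20.8% of all windows. Each line below is 30 bases of the sense strand, 5′ to 3′, lined up on the core, with the whole element or the core in capitals.
Pcsk1: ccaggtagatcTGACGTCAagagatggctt
Chgb: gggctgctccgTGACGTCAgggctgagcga
Scg2: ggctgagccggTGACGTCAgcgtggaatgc
Chga: gggcggtcctaTGACGtaatttcctgggtg
Scg3: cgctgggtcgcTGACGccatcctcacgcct
The first base of the element lay 78 bases before the start of Pcsk1 (stretch at chr13:75089768-75089797, plus strand), 72 before that of Chgb (chr2:132781559-132781588, plus strand) and 68 before that of Scg2 (chr1:79440076-79440105, minus strand). In Chga the core began 44 bases before the start (chr12:102554886-102554915, plus strand) and went on differently from the palindrome. In Scg3 it began 30 bases before the start (chr9:75684068-75684097, minus strand). For context, the whole 250 bases before the start of Chgb (chr2:132781392-132781641, plus strand) are given below, with the element in capitals.
Chgb: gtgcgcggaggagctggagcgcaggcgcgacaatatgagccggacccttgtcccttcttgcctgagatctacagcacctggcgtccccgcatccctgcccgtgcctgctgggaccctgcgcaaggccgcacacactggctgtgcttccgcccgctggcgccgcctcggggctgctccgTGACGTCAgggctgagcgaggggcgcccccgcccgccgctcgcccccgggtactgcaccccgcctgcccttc
The letters TATAAA, searched on both strands, were in the window of Chga alone among the 9, from base 6 to base 11 after the annotated start, and in 13.6% of all windows. A match is a description of letters, and no data on binding were used.

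**Figure D1:**
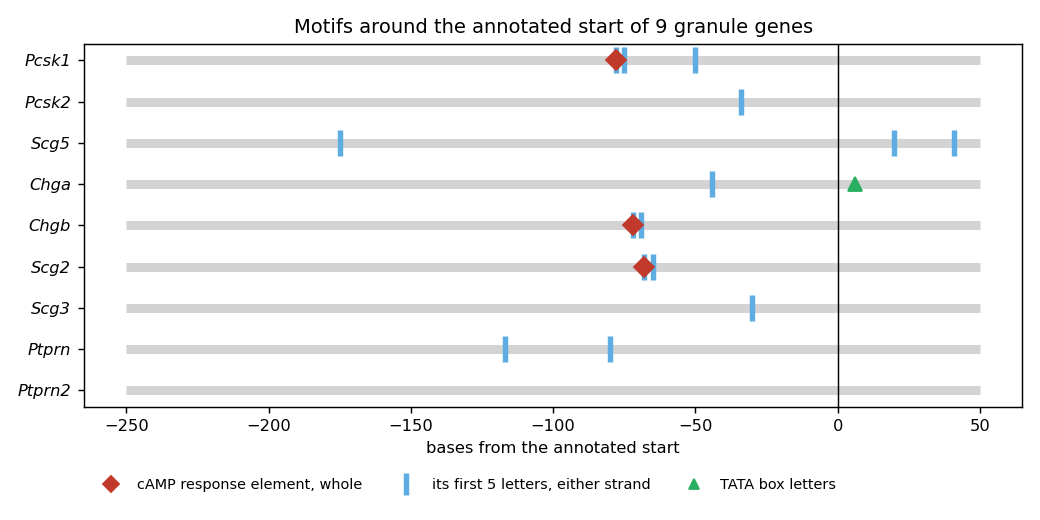
Positions of the whole cyclic AMP response element (diamonds), its core TGACG on either strand (bars) and the letters of a TATA box (triangle) in bases from the annotated start, for the 9 genes with a promoter window (grey, the first window for Ptprn). The whole element lies 78, 72 and 68 bases before the starts of Pcsk1, Chgb and Scg2.

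A level here is the mean deposited log2 value over the probe sets of a gene on an array. All 10 genes lay above the median level of all genes, which was 6.66. Averaged over the 6 arrays, Scg3 (12.59), Chga (12.57) and Cpe (12.34) stood above 99.8% of all genes, and Pcsk1 (11.43) above 99% of them. Pcsk2 (11.25), Chgb (11.06) and Scg5 (11.00) stood at percentiles 98.7, 98.3 and 98.1. Ptprn (10.06), Scg2 (9.85) and Ptprn2 (9.21) were the dimmest of the set, at percentiles 93.7, 92.2 and 86.5. Probes bind with unequal strength, so these places describe brightness on the array and do not rank transcripts. Probe sets of one gene also differed in level: the 6 for Scg2 ran from 6.50 to 13.09 and the 6 for Chgb from 6.77 to 13.60, whereas the 8 for Chga ran only from 11.97 to 12.95. Of the 125 probe sets, 119 were brighter than the median probe set (7.22). The dim ones were 1 each for Pcsk1 and Chgb and 2 each for Scg2 and Ptprn2.

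The arrays and labels were checked first. Meg3 itself read 7.24, 7.91 and 7.53 in the Meg3 cultures, against 5.63, 6.00 and 5.88 in the vector cultures. Of 9 beta cell markers, 8 were above the median level of all genes, with Iapp (the amylin precursor) at 13.22 ± 0.30 in the Meg3 clone and 13.34 ± 0.42 in the vector clone (SD, n = 3 each). Ins2, G6pc2 and Slc30a8 each stood at percentile 99.9, Pdx1 at 92.9 and Nkx6-1 at 81.4. Slc2a2 and Mafa were only just above the median, at percentiles 56.2 and 55.8, and Ucn3 was below it, at percentile 27.7. Of 4 measured alpha cell markers, Irx1 and Irx2 stood at percentiles 37.1 and 59.0, and Gcg and Ttr were bright, at 12.66 ± 0.11 and 11.98 ± 0.06 in the Meg3 clone, against 12.82 ± 0.12 and 11.91 ± 0.23 in the vector clone (SD, n = 3 each). None of 6 acinar markers and 1 of 7 fibroblast markers was above that median. Their mean list levels were 5.62 to 5.73 and 5.67 to 5.78 in the Meg3 cultures. In the vector cultures they were 5.58 to 5.73 and 5.68 to 5.89. Of 5 duct markers 2 were above that median, Spp1 (percentile 99.7) and Krt7 (percentile 93.8). So were 2 of 4 leukocyte markers, Cd68 (percentile 78.3) and Cd3e (percentile 51.7), and 1 of 4 delta and PP markers. No marker of the beta, alpha, delta and PP, acinar, duct, fibroblast or leukocyte lists was called between the clones (limma, adjusted p under 0.05), beside 0.666% of all genes. An unadjusted p under that value was found for 4 of these markers and for 6.96% of all genes. Without Meg3 replicate 1 and vector replicate 2, a duct marker and a leukocyte marker were called lower, Spp1 (-0.56, limma adjusted p = 0.00821) and Cd3e (-0.72, limma adjusted p = 0.00238). In that fit 4.01% of all genes were called lower. Each group was 1 clone of a beta cell line, so the names of these lists do not show that other cell types were present. In bulk RNA, fewer cells with a transcript and less of it per cell cannot be told apart. Meg3 replicate 1 and vector replicate 2 stood apart, with an SD of 0.64 and 0.86 (log2) about the median of the arrays left, where the 4 others had 0.43 to 0.48, so results that rest on them are given with and without them.

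None of the 10 genes passed the test between the clones (0 called; limma over all 20416 genes, Benjamini-Hochberg adjusted p under 0.05), and 0.666% of all genes did. At an unadjusted p under 0.05 the fit gave 1 of the 10, Pcsk1, and 6.96% of all genes. Meg3 and vector cultures were fully separated for 1 of the 10, again Pcsk1, and for 12.8% of all genes. Differences were negative, lower in the Meg3 clone, for 7 genes and positive for 3, and were negative for 48.4% of all genes. Their median was -0.15 on the log2 scale, beside 0.01 over all genes. Pcsk1 had the largest difference of the set and Scg2 the smallest. The counts of called and of separated genes were thus near the background. The 3 genes with a whole cyclic AMP response element before their start had values of -0.54 for Pcsk1, -0.39 for Chgb and 0.05 for Scg2, with 95% intervals that overlap.

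**Figure D2:**
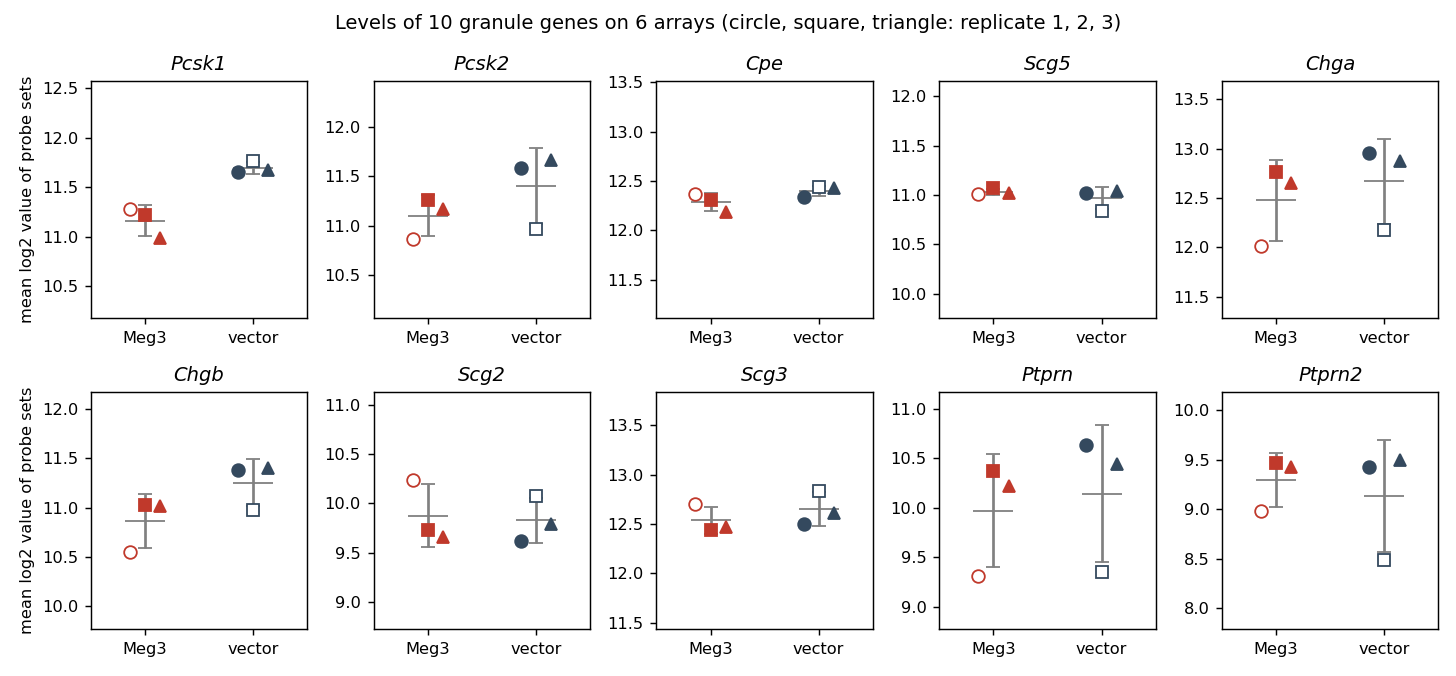
Level of each of the 10 genes (mean log2 value of its probe sets) in the 3 Meg3 cultures (left, red) and the 3 vector cultures (right, dark), with mean and SD in grey; every panel spans the same log2 range, and open symbols are Meg3 replicate 1 and vector replicate 2. Only in the Pcsk1 panel do the clones not overlap, and the open symbols lie below the filled ones of both clones for Pcsk2, Scg5, Chga, Chgb, Ptprn and Ptprn2.

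Pcsk1, which encodes the convertase that mainly makes the first cut in proinsulin, read 11.28, 11.22 and 10.98 in the Meg3 cultures, against 11.65, 11.77 and 11.68 in the vector cultures. All 3 Meg3 cultures lay below all 3 vector cultures, and the arrays that stood apart, Meg3 replicate 1 and vector replicate 2, were the highest of their clones. The difference was -0.54 (SE 0.12, 95% interval -0.82 to -0.25; 1.45 times lower in the Meg3 clone), with a limma adjusted p of 0.160. An exact permutation test of 3 against 3 arrays cannot go under 0.1. All 15 Pcsk1 probe sets were lower in the Meg3 clone, by -1.40 to -0.22. The difference of -1.40 belonged to the dimmest, which read 5.14, 6.23 and 5.99 in the Meg3 cultures, against 7.99, 6.57 and 6.99 in the vector cultures. With probe sets above the median alone the gene differed by -0.48 (limma adjusted p = 0.379). Without Meg3 replicate 1 and vector replicate 2, Pcsk1 differed by -0.56 (SE 0.11), and it then passed the test (limma adjusted p = 0.0163).

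Pcsk2, which encodes the convertase that mainly makes the other cut in proinsulin, read 10.87, 11.27 and 11.17 in the Meg3 cultures, against 11.58, 10.96 and 11.67 in the vector cultures. Vector replicate 2 lay among the Meg3 cultures, and the other vector cultures lay above all of them. The difference was -0.30 (SE 0.21, 95% interval -0.77 to 0.17; limma adjusted p = 1.00). All 14 probe sets were lower, by -0.63 to -0.08. Without the arrays that stood apart the difference was -0.40 (SE 0.10, limma adjusted p = 0.0450), which passed the test. Spp1 and Cd3e, from the duct and leukocyte lists above, were lower in that same fit. Their part in the results for Pcsk1 and Pcsk2 was not tested. Scg5, the chaperone gene of that convertase, read 11.01, 11.07 and 11.02 in the Meg3 cultures, against 11.02, 10.84 and 11.04 in the vector cultures, and the groups overlapped. It differed by 0.07 (SE 0.11, 95% interval -0.20 to 0.33). Cpe, the carboxypeptidase gene, read 12.36, 12.31 and 12.18 in the Meg3 cultures, against 12.34, 12.44 and 12.42 in the vector cultures, which also overlapped. Its difference was -0.12 (SE 0.11, 95% interval -0.38 to 0.14). The intervals of Cpe and Scg5 were the narrowest of the 10 and span 0.770-fold to 1.10-fold and 0.872-fold to 1.26-fold.

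Among the granins, Chgb had the largest difference. It read 10.55, 11.03 and 11.01 in the Meg3 cultures, against 11.38, 10.98 and 11.40 in the vector cultures, with vector replicate 2 inside the range of the Meg3 clone. The difference was -0.39 (SE 0.18, 95% interval -0.81 to 0.02; limma adjusted p = 0.759). Of its 6 probe sets, 5 were lower, by -0.86 to -0.12, and the dimmest differed by 0.05. The brightest, at 13.60, gave the difference of -0.12. Without the arrays that stood apart Chgb differed by -0.37 (SE 0.09; limma adjusted p = 0.0540), on the other side of the threshold from Pcsk1 and Pcsk2.

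Chga, the gene of chromogranin A, read 12.01, 12.76 and 12.65 in the Meg3 cultures, against 12.96, 12.18 and 12.88 in the vector cultures. Each clone had a single low array, and otherwise the Meg3 values were below the vector values. The difference was -0.19 (SE 0.26, 95% interval -0.79 to 0.41), and all 8 probe sets were lower, by -0.28 to -0.12. Scg2, the gene of secretogranin II, read 10.24, 9.73 and 9.66 in the Meg3 cultures, against 9.62, 10.08 and 9.79 in the vector cultures, so the groups overlapped. It differed by 0.05 (SE 0.19, 95% interval -0.39 to 0.49), with 4 probe sets higher and 2 lower, from -0.66 to 0.82. Scg3, the gene of secretogranin III, which binds chromogranin A and cholesterol at the granule membrane, read 12.70, 12.44 and 12.47 in the Meg3 cultures, against 12.50, 12.84 and 12.61 in the vector cultures. Its difference was -0.11 (SE 0.14, 95% interval -0.43 to 0.20), and its 12 probe sets were all lower, by no more than -0.19.

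The granule membrane genes had the widest spread between cultures of the vector clone, and Ptprn also had it in the Meg3 clone. Ptprn read 9.31, 10.37 and 10.22 in the Meg3 cultures, against 10.63, 9.35 and 10.44 in the vector cultures, so each clone had 1 culture about 1 log2 unit below the others. It differed by -0.17 (SE 0.38, 95% interval -1.05 to 0.70). Ptprn2 read 8.98, 9.47 and 9.42 in the Meg3 cultures, against 9.43, 8.48 and 9.50 in the vector cultures, with the same pair of arrays low. It differed by 0.16 (SE 0.28, 95% interval -0.48 to 0.79). For Ptprn 19 of 22 probe sets were lower in the Meg3 clone, and for Ptprn2 17 of 24 were higher. Without the arrays that stood apart Ptprn differed by -0.24 (SE 0.11) and Ptprn2 by -0.01 (SE 0.10). For both genes the SE with all 6 arrays was more than 2 times the SE without those arrays. The same held for Chga (0.26 and 0.10) and Pcsk2 (0.21 and 0.10). Those arrays were left out for their spread, so a smaller SE without them is no separate finding.

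**Figure D3:**
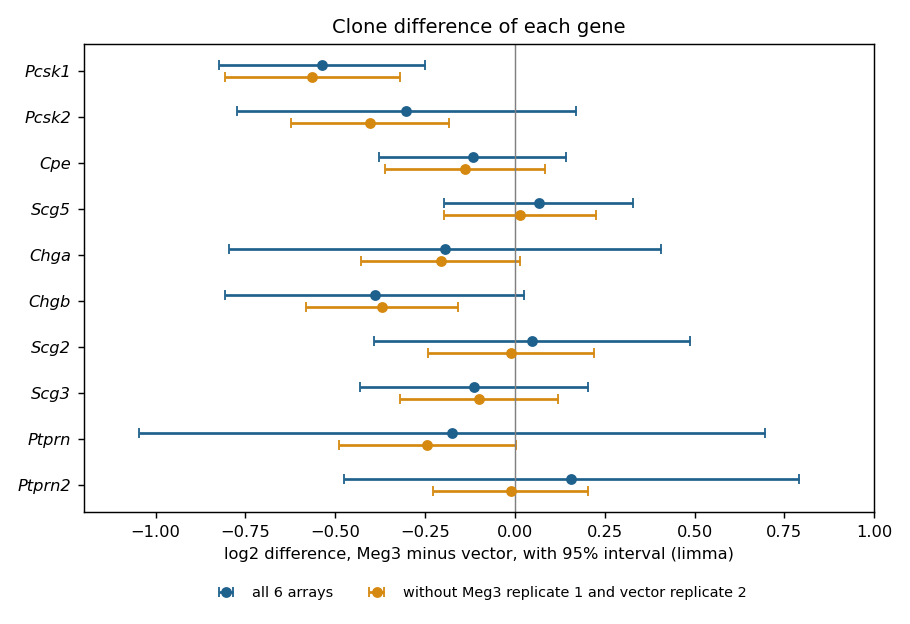
Log2 difference, Meg3 minus vector, of each gene with its 95% interval from limma, for all 6 arrays (blue) and without Meg3 replicate 1 and vector replicate 2 (orange). With 6 arrays the interval of Pcsk1 alone lies wholly below 0 (-0.82 to -0.25), and with 4 arrays so do those of Pcsk2 and Chgb.

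Tested singly, 0 of the 125 probe sets were called by limma (lowest adjusted p 0.547), as were 0.00377% of all probe sets. An unadjusted p under 0.05 was found for 7 of them, 5 of Pcsk1 and 2 of Pcsk2, all lower in the Meg3 clone, and for 5.65% of all probe sets, 3.13% being lower. Of the 125, 92 were lower and 33 higher, whereas 49.2% of all probe sets were lower. Probe sets of a gene share its transcripts and its arrays and are not replicates. In 4 genes every probe set was lower (Pcsk1, Pcsk2, Chga and Scg3), and in none was every probe set higher. How often all probe sets of a gene share a sign was not counted over all genes, so this is a description.

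**Figure D4:**
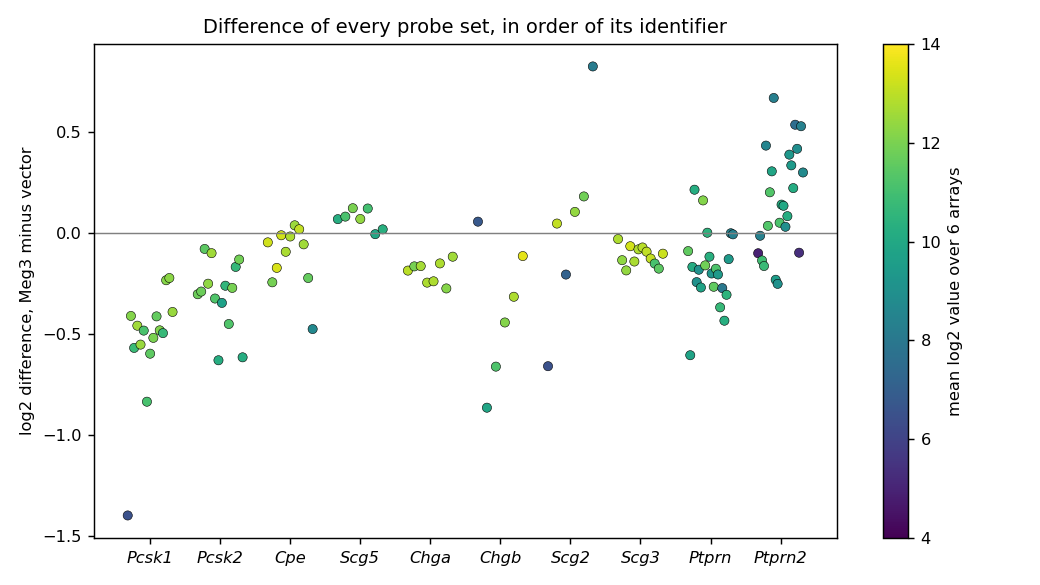
Log2 difference, Meg3 minus vector, of each of the 125 probe sets, side by side within a gene in order of identifier and coloured by mean log2 value over the 6 arrays. All 15 probe sets of Pcsk1 lie below 0, the lowest (-1.40) being its dimmest, and 17 of 24 of Ptprn2 lie above 0.

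Without Meg3 replicate 1 and vector replicate 2, 2 of the 10 genes were called, both lower (Pcsk1 and Pcsk2), as were 4.01% of all genes in that direction. Differences were then negative for 9 of the 10 and for 45.3% of all genes, with a median of -0.17, beside 0.02 over all genes. This setting was chosen with earlier results of these data known, and the arrays it leaves out were picked for their spread.

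Those 2 arrays read many genes, the granule genes among them, in a shared pattern. Both lay below the other 4 arrays for 6 of the 10 genes (Pcsk2, Scg5, Chga, Chgb, Ptprn and Ptprn2), as they did for 20.6% of all genes. Both lay above the other 4 for Scg2 and Scg3, as they did for 24.5% of all genes. For Pcsk1 and Cpe they did neither. In Ptprn, the gap to the mean of the other cultures of the clone was -0.98 for Meg3 replicate 1 and -1.19 for vector replicate 2. In Chga the same gaps were -0.70 and -0.74, and in Scg2 they were 0.55 and 0.37. In Pcsk1 they were only 0.18 and 0.10.

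The pattern differed between probe sets of the same gene, as a split of the Chga probe sets made after seeing their values shows. In order of identifier, the first 4 Chga probe sets averaged 11.62, 13.03 and 12.81 in the Meg3 cultures, against 13.21, 11.72 and 13.11 in the vector cultures. The last 4 averaged 12.40, 12.49 and 12.50 in the Meg3 cultures, against 12.70, 12.64 and 12.64 in the vector cultures. In the first 4, gaps to the other cultures of the clone ran from -1.56 to -1.16 for Meg3 replicate 1 and from -1.76 to -0.96 for vector replicate 2. In the last 4 the gaps ran from -0.28 to 0.14 and from -0.47 to 0.28. Both arrays lay below the other 4 in 5 of the 8 probe sets, so 1 of the last 4 shared that order with smaller gaps. Differences between the clones ran from -0.25 to -0.16 in the first 4 (SE 0.43 to 0.63) and from -0.28 to -0.12 in the last 4 (SE 0.18 to 0.22). With an SE of that size, these values do not show that both sets differed alike.

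Counted over all 10 genes, 37 of 125 probe sets were at least 0.5 lower in both arrays than the mean of the other cultures of their clone, and 10.9% of all probe sets were. Of these 37, 16 were of Ptprn (of 22), 8 of Ptprn2 (of 24), 4 of Chga (of 8) and 4 of Pcsk2 (of 14). Chgb had 3 (of 6), and Pcsk1 and Cpe had 1 each. In Scg2, Scg3 and Scg5 none were. Another 5 were at least 0.5 higher in both, as were 6.41% of all probe sets. Over the 125 probe sets the gaps of the 2 arrays had a Pearson r of 0.887, beside 0.365 over all probe sets with 1 symbol. Probe sets of a gene share transcripts and arrays, so this r is a description. Of the 125, 119 were brighter than the median probe set, and no comparison here with all probe sets was matched for level. The position of a probe set along its transcript is not given in the sources used here, and the part of RNA quality or labelling in these gaps was not tested.

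**Figure D5:**
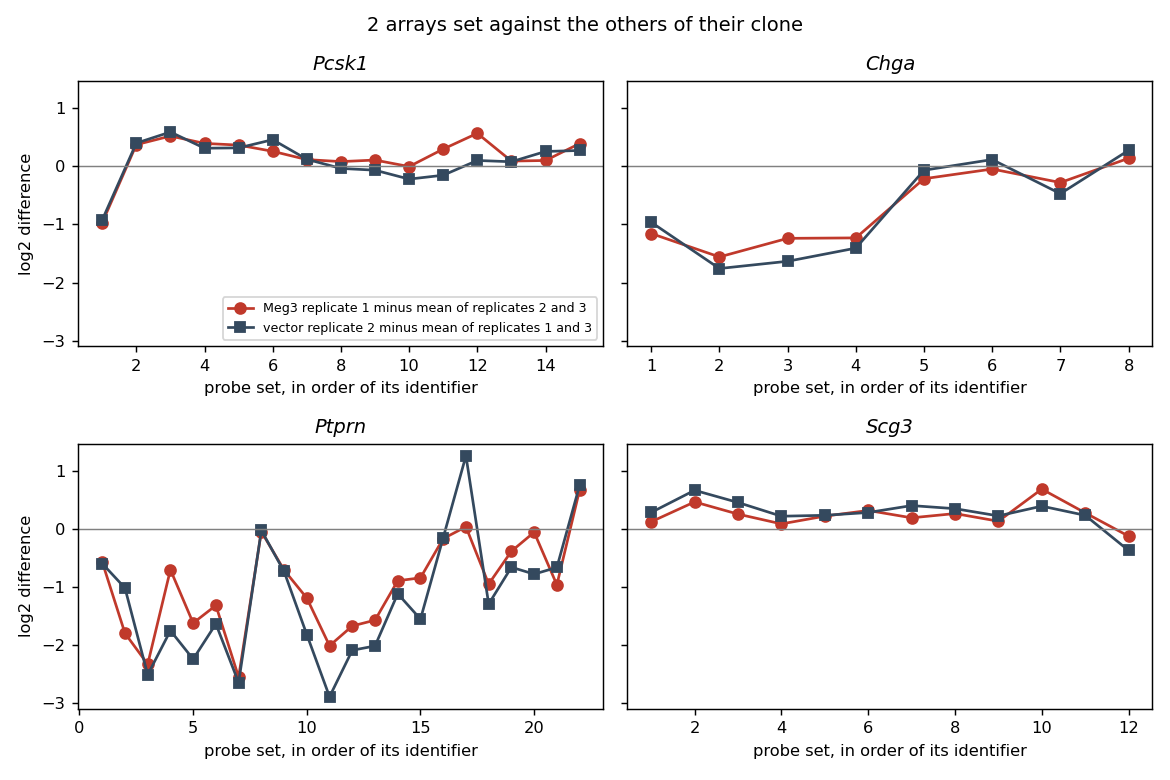
Gap of Meg3 replicate 1 (red circles) and of vector replicate 2 (dark squares) to the mean of the other 2 cultures of their clone, in log2 units, for each probe set of Pcsk1, Chga, Ptprn and Scg3 in order of identifier. The curves of both arrays mostly run together. They lie between -0.37 and 0.69 for Scg3 and near or above 0 for all but the first probe set of Pcsk1. For the first 4 probe sets of Chga they lie below -0.9. In places they part, as at a probe set of Ptprn with 0.04 for Meg3 replicate 1 and 1.26 for vector replicate 2.

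Genes with linked roles were also set against each other within each array, which removes any shift that an array gives to both. Pcsk2 minus Scg5, a convertase and its chaperone, was -0.14, 0.20 and 0.15 in the Meg3 cultures, against 0.56, 0.13 and 0.63 in the vector cultures. The groups overlapped through vector replicate 2, and the clone difference was -0.37 (exact permutation p = 0.3, two-sided). Ptprn minus Ptprn2 was 0.34, 0.90 and 0.79 in the Meg3 cultures, against 1.21, 0.87 and 0.95 in the vector cultures, a difference of -0.33 (exact permutation p = 0.2). Vector replicate 2 again lay within the Meg3 range. For Pcsk1 minus Pcsk2, Chga minus Chgb and Scg2 minus Scg3 the clone differences were -0.24, 0.20 and 0.16, with exact permutation p of 0.5, 0.3 and 0.2. Adjusted over the 5 pairs, p ran from 0.375 to 0.5. Since 3 against 3 arrays cannot give p under 0.1, these p-values do not show that the members of a pair changed alike. Without Meg3 replicate 1 and vector replicate 2, the clone differences were -0.42 for Pcsk2 minus Scg5, -0.23 for Ptprn minus Ptprn2, -0.16 for Pcsk1 minus Pcsk2, 0.16 for Chga minus Chgb and 0.09 for Scg2 minus Scg3. Leaving out 1 array also moved values by over 1.5 times. Without vector replicate 2, Pcsk1 minus Pcsk2 turned to 0.02 and Chga minus Chgb was 0.09. Without Meg3 replicate 1, Pcsk1 minus Pcsk2 was -0.41, Scg2 minus Scg3 was 0.06 and Ptprn minus Ptprn2 was -0.16. Pcsk1 minus Pcsk2 was also -0.11 without Meg3 replicate 3 and -0.38 without vector replicate 3.

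Other genes of the pathway were taken from lists written with earlier results of these data known. Among 18 other processing enzymes and inhibitors, 2 were called, both lower in the Meg3 clone, beside 0.465% of all genes in that direction. The median difference of the 18 was 0.01, as over all genes. Qpct encodes glutaminyl cyclase, which forms the pyroglutamate end of some peptides. It read 5.42, 5.05 and 5.12 in the Meg3 cultures, against 6.30, 6.02 and 6.15 in the vector cultures. All of these values lie under the median level of all genes (6.66), and the clones did not overlap. The difference of Qpct was -0.96 (SE 0.14; limma adjusted p = 0.0285). Ctsl encodes cathepsin L, a lysosomal cysteine protease that can also cut some prohormones. It read 11.21, 11.03 and 10.91 in the Meg3 cultures, against 11.88, 11.89 and 11.89 in the vector cultures, again without overlap. The difference of Ctsl was -0.84 (SE 0.12; limma adjusted p = 0.0250), larger than that of any of the 10 granule genes. The SD of Ctsl was 0.15 over the Meg3 cultures and 0.0046 over the vector cultures. Neither gene was called with a replicate block, with the median or the brightest of the probe sets, or without any one of Meg3 replicates 2 and 3 and vector replicates 1 and 3.

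None of 20 prohormone and cargo genes, 19 genes of granule biogenesis and membrane and 13 regulators of granule genes was called by limma with all 6 arrays. At an unadjusted p under 0.05 there were 2 cargo genes and 1 biogenesis gene, all lower, beside 6.96% of all genes in either direction. The medians of these lists were -0.08, 0.03 and -0.02. The brightest cargo genes were Iapp, which differed by -0.12 (SE 0.23), and Gcg, the glucagon gene, by -0.16 (SE 0.12). In the biogenesis list Slc30a8, the zinc transporter of the insulin granule, differed by -0.06 (SE 0.12) and the proton pump subunit gene Atp6v1a by 0.04 (SE 0.16). Among regulators, the transcription factor genes Insm1 and Creb1, the second encoding a protein that binds the cyclic AMP response element, differed by -0.09 (SE 0.16) and -0.02 (SE 0.12). Without the arrays that stood apart, 2 cargo genes and 1 biogenesis gene were called lower, beside 4.01% of all genes, and none of the regulators was called. Selected here only after seeing their values, those 3 were the neuropeptide gene Npy (-0.66), the cholecystokinin gene Cck (-0.50) and Cadps (-0.53), which encodes a priming factor for granule release.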

How the data were processed

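The deposited table holds log2 values of 241419 probe sets on 6 arrays, made by the authors with RMA; the submitters' processing notes name Partek too. No version or genome build is given in the sources used here. Per the labels' protocols, 6 µg of total RNA from each culture was labelled with biotin. Labels differ in their name for the Meg3 clone, and their descriptions speak of a cell sort that no protocol mentions. GEO's platform annotation gave 1 symbol to 212097 probe sets, several symbols to 4475 and no symbol to 24847, and only the 212097 were used. Probe sets were averaged per gene (20416 genes). Of these, 20363 symbols matched the GRCm38.p6 gene table, 2742 through a synonym.

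The fit used limma 3.58.1 under R 4.3.3 (lmFit, eBayes, Meg3 minus vector, two-sided) with neither filter nor covariate, and p-values were adjusted by Benjamini-Hochberg across all genes. The threshold was 0.05, and intervals are 95%. The steps were tested on simulated data. Precision is limited by the number of arrays, which have no read depth.

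The 10 genes and all lists were chosen with earlier results of these data known. Named were the 10 genes and Meg3. From each list of other pathway genes came up to 2 called genes in each direction, by size of difference. Where none was called, the 2 brightest were named. Npy, Cck and Cadps were added after seeing their values, and the naming of cell type markers did not keep to this rule. Alternatives were a replicate block, centring, quantile normalization again, no dim genes, other probe set summaries, eBayes with trend and robust estimation, array weights and left-out arrays. Promoter motifs were found with Python 3.11.15. Protein sequence features were not analysed here.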

Additional observations from a re-analysis of the deposited data

How the results depend on the processing

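With a replicate block, 11 genes were higher and 19 lower, against 41 and 95; with the median of probe sets 16 and 42; with the brightest probe set 12 and 28; with array weights 377 and 869; and without Meg3 replicate 1 and vector replicate 2 together 292 and 819. With 1 array left out at a time there were 8 to 78 higher and 14 to 271 lower. Of the 10 granule genes, 3 were called with array weights, all lower (Pcsk1 -0.56, adjusted p = 0.00513; Pcsk2 -0.44, 0.0368; Chgb -0.42, 0.0417), 2 without both arrays, and 0 in every fit with 1 array left out. Over all settings Pcsk1 stayed between -0.60 and -0.45 and was called in 2 of 17. The weights were estimated gene by gene after the default estimate did not converge, and gave 0.43 to Meg3 replicate 1 and 0.16 to vector replicate 2. Sign changes were all in genes not called: Chga 0.0392 without Meg3 replicate 1; Ptprn 0.16 with the brightest probe set, 0.15 without Meg3 replicate 1 and 0.07 without vector replicate 1; Ptprn2 -0.0525 with array weights, -0.01 without both arrays and -0.17 without vector replicate 2; Scg2 -0.01 without both arrays, -0.14 without Meg3 replicate 1 and -0.06 without vector replicate 1. With 1 array left out at a time Chga ranged from -0.44 to 0.0392, Ptprn from -0.57 to 0.15, Ptprn2 from -0.17 to 0.34 and Scg2 from -0.14 to 0.17. Others kept their sign but moved by over 1.5 times with 1 array left out. Pcsk2 was -0.17 (without vector replicate 3), -0.18 (Meg3 1) and -0.52 (vector 2). Chgb was -0.23 (Meg3 1) and Cpe -0.07 (Meg3 3). Scg3 was -0.0199 (vector 2), -0.07 (Meg3 2), -0.19 (vector 1) and -0.20 (Meg3 1). Scg5 was 0.00259 (vector 2) and 0.10 (vector 3). Other settings also moved values by over 1.5 times. With the brightest probe set Pcsk2 was -0.10, Chgb -0.12, Scg3 -0.07 and Ptprn2 0.03. With the median Scg3 was -0.06, Scg5 0.13 and Scg2 0.25. Scg2 was 0.29 with bright probe sets alone. With array weights Ptprn was -0.30, and Scg5 and Scg2 were 0.01 each. Without both arrays Scg5 was 0.01. Of the other processing enzymes, 2 were called in the fit as reported, 0 with the replicate block, the median of probe sets or the brightest probe set, 1 without the dimmest 30% of genes or with bright probe sets alone, and 0 to 2 with 1 array left out. Prohormones and cargo gave 1 with array weights, 2 without both arrays and 0 to 1 with 1 array left out; granule biogenesis gave 1 with array weights and 1 without both arrays. Chga minus Chgb was 0.38 with the median of probe sets and -0.07 with the brightest, Ptprn minus Ptprn2 0.13 with the brightest, and Scg2 minus Scg3 0.31 with the median and 0.40 with bright probe sets. The cause of these shifts was not tested. Deviations of same-numbered cultures from their group means correlated at -0.61, -0.63 and 0.28. The arrays that stood apart have different numbers, and Meg3 replicate 1 and vector replicate 2 correlated at 0.65. These values therefore cannot decide whether same-numbered cultures were handled together. The replicate block changed no call of the 10 genes.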
